A study of Mus musculus with 15 samples.

Results

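The synaptic vesicle and exocytosis genes described here are 39 genes of the machinery that fills, docks, fuses and retrieves neurotransmitter vesicles. They were chosen by symbol, through the RefSeq accession that the scanner files give for each probe, and where several probes matched a gene, the one of highest mean processed Cy5 signal was used. A probe was matched for 38 of the 39 genes, and no probe was matched to Syt5, a synaptotagmin, which was not analysed here. Sv2c, a vesicle glycoprotein, was above background on 2 of 15 arrays and was not tested. The other 37 genes were tested within a fit over 22552 genes.

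A synaptic vesicle fuses when the vesicle SNARE protein (Vamp1, Vamp2) zippers with the plasma membrane SNAREs (Stx1a, Snap25), and synaptotagmins together with complexins couple that step to calcium entry. The ATPase Nsf and its SNAP adaptors (Napa, Napb, Napg) take the SNARE complex apart afterwards, while Rims, Unc13a, Bsn and Pclo hold vesicles ready at the active zone. Synapsins tether the reserve vesicles, and the clathrin adaptor Snap91, dynamin, amphiphysin and synaptojanin recover vesicle membrane after fusion.

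Left hemibrains were taken from male C57BL/6j mice kept for 24 weeks, from 3 weeks of age, on a diet whose n-3 and n-6 polyunsaturated fats stood at 7:1 (enriched, ERD), 1:1 (balanced, BLD) or 1:6 (standard lab diet, STD). The 3 diets were matched for calories, no group carried a transgene or deletion, and each diet had 5 samples. Each sample in Cy5 was hybridised with the same Cy3 reference, a pool of RNA from 11 mouse cell lines, so that every value is a log2 ratio of hemibrain to reference on 1 array. The labels number the samples singly but do not say that each is a separate animal, and otherwise the p-values cover only the spread between these samples. In a whole hemibrain, fewer cells of a type and less RNA per cell cannot be told apart.

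Detection differed between arrays, with 17720 spots well above background in Cy5 on the array ERD 1 and 22467 to 31991 on the other 14. ERD 1 was the lowest of all 15 arrays for 16 of the 37 vesicle genes (43.2%), against 16.3% of all genes tested, and results that rest on it are given with and without it. The arrays came from 8 slides and 2 scan days. The later day held 1 ERD array, 3 BLD arrays and 0 STD arrays, so part of each BLD comparison cannot be told apart from scan day. The Cy3 signal of the common reference also varied. In limma on Cy3 alone, 15.7% of all genes were at an unadjusted p under 0.05 in BLD against STD. From Cy5 alone that share was 10.4%. In ERD against STD the shares were 1.99% and 15.1%, and in ERD against BLD 6.9% and 10.1%. A ratio can change through either channel.

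Nearly all of the vesicle genes were higher in hemibrain than in the cell-line reference. The ratio averaged over the 15 arrays was above 0 for 36 of 37 genes (97.3%), with a median of 3.37 on the log2 scale, against 58.8% of all genes tested and a median of 0.14. Syt1, the calcium sensor of fast release, had a mean log2 ratio of 7.98, or 253-fold over the reference. Pclo, Rab3a, Cplx1 and Syn2 had ratios of 54.7-fold, 55-fold, 53.3-fold and 52.5-fold. The exception was Sypl, a synaptophysin relative that is made in many tissues, at -1.11. These ratios set each gene against its own reference signal and do not order the genes by level. The folds also depend on the background correction (offset 50) where the reference signal is low, and do not rank the genes by enrichment. With the scanner software's own log ratio, the log2 values of Pclo were 6.22 to 9.46, against 5.08 to 6.86 here. Those of Snap91 were 4.31 to 9.44, against 0.97 to 5.29. All 12 of 12 neuron markers were measured, and their mean log2 ratio was above 0 on every array.

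Promoter sequence from RefSeq (GRCm38.p6) was found for 30 of the 39 genes. In the 250 bases before each start, the GC box GGGCGG, searched on both strands, was present for 22 of 30 vesicle genes (73.3%), against 35.4% of the 27025 genes in the table. The half-site TGACG of the cAMP response element (CRE), which also lies within the full element TGACGTCA, was present for 10 of 30 (33.3%), against 19.8%, and the full element for 1 (3.33%), against 1.77%. The half-site CAGCACC of the RE1 element was present for 3 (10%), against 6.56%, and the E-box CACGTG for 3 (10%), against 6.86%. Over single windows, the GC box was in 32.7% of all 32851, the CRE half-site in 17.8% and the RE1 half-site in 5.73%. The median GC content was 61.2% in the vesicle gene windows and 52.4% in all windows. A match gives letters in this window only. The first listed windows are shown for the 4 genes with an entry whose F test over the 3 diets gave the lowest p, with GC boxes and CRE half-sites in capitals. Synj1 is at chr16:91011309-91011558 and Snap91 at chr9:86880709-86880958, both on the minus strand. Syt1 is at chr10:109010976-109011225 on the minus strand and Syt2 at chr1:134646362-134646611 on the plus strand.
Synj1: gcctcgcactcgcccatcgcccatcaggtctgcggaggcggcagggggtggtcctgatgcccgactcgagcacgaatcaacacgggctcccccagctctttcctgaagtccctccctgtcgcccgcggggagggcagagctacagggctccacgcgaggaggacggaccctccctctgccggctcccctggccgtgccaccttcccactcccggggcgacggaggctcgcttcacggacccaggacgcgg
Snap91: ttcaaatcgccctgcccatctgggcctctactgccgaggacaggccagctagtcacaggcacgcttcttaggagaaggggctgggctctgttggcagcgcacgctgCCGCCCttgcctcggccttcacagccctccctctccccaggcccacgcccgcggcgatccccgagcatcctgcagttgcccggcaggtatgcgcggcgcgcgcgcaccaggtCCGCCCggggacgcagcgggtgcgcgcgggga
Syt1: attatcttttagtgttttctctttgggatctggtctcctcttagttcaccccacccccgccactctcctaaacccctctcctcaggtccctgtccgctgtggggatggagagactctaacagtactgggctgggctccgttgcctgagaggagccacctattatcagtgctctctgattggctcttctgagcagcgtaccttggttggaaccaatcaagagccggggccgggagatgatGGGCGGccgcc
Syt2: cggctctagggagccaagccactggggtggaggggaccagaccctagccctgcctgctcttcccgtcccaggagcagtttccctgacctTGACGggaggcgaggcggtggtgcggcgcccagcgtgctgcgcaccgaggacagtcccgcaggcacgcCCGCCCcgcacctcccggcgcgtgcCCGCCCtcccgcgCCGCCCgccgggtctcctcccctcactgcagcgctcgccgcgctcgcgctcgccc
The windows of Snap91, Syt1 and Syt2 hold 2, 1 and 3 GC boxes, Syt2 also holds 1 CRE half-site, and the Synj1 window shown holds 0 of either, its matches counted above lying in another listed window.

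ERD against STD asks how these transcripts differed between the enriched and the standard diet. Among the 37 vesicle genes, 29 had a negative log2 change, with a median of -0.16, and the lowest unadjusted p-values on that side were those of the SNAP adaptor Napg, the synaptojanin gene Synj1 and the clathrin adaptor gene Snap91. Snap25, a membrane SNARE, was the 1 gene on the high side at an unadjusted p under 0.05. None of the 37 passed a Benjamini-Hochberg adjusted p of 0.05 in limma (0 of 37), where 0.217% of all genes did, and the lowest adjusted p was 0.108, for Napg. At an unadjusted p under 0.05 there were 8 genes (21.6%), against 14.6% of all genes. The low side held 7 of them (7.54% of all genes) and the high side 1 (7.09% of all genes). Syt2 is among the 7 although it was above background on 0 ERD arrays and entered the test through the STD and BLD arrays, and without it 6 remain. A negative change was found for 78.4% of the vesicle genes and for 47.1% of all genes, whose median was 0.02. Without ERD 1, 21 of 37 changes were negative (56.8%, against 46.3% of all genes). The share of negative changes thus rests in part on that array. The median was then -0.08, against 0.02 for all genes, and 9 genes were at an unadjusted p under 0.05 (13.8% of all genes). With the scanner software's own log ratio, 25 of 37 were negative (53.9% of all genes), and from Cy5 alone 21 of 37 (49.2% of all genes), with a median of -0.06.

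**Figure D1:**
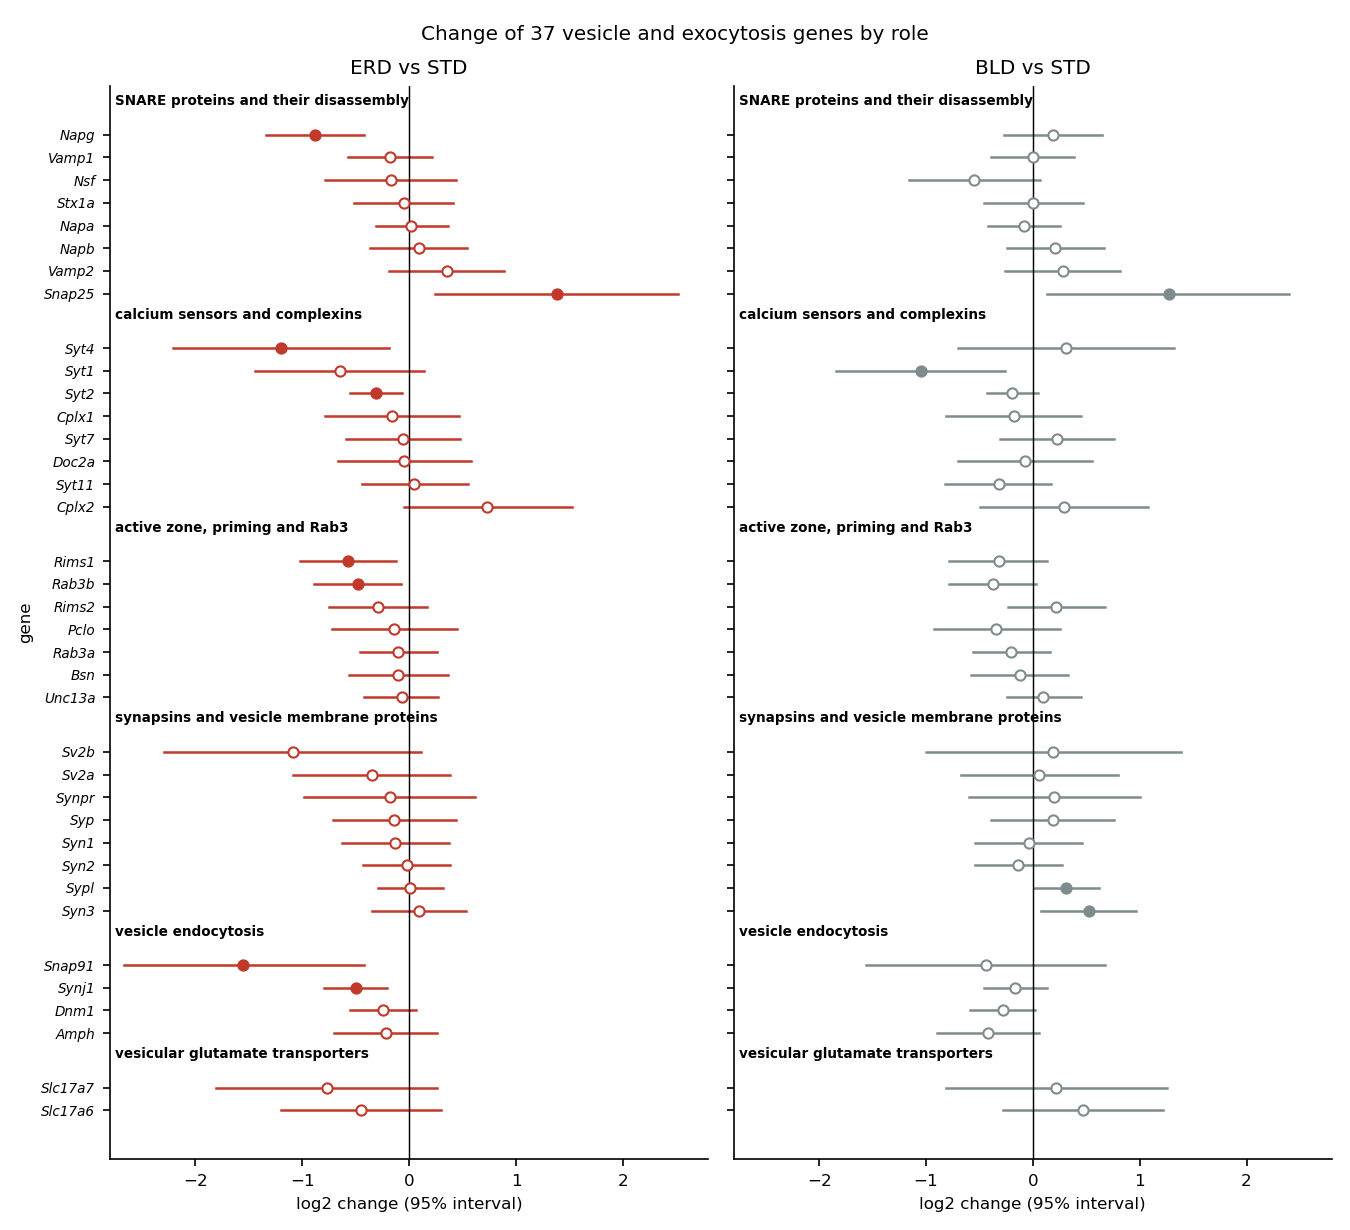
Log2 change of each of the 37 tested genes in the ERD and BLD diets, each against STD, grouped by role, with 95% intervals from limma (points filled where the unadjusted p was under 0.05). In ERD against STD, all 7 active zone genes (5 of 7 with the scanner ratio, 4 of 7 from Cy5 alone) and all 4 endocytosis genes lie below 0, as do 47.1% of all genes. Snap25 lies at 1.38, and none of the genes passed the adjusted threshold.

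The SNARE genes and the genes of SNARE disassembly did not share a direction, with 4 of 8 negative in ERD against STD (50%, against 47.1% of all genes). The median was -0.01 (0.06 from Cy5 alone). Napg encodes gamma-SNAP, one of the adaptors that bring Nsf to used SNARE complexes. Its log2 ratios were 0.15, 0.82, 0.93, 0.54 and 1.33 on the ERD arrays, 2.42, 1.54, 1.6, 1.74 and 1.82 on the BLD arrays, and 1.71, 2.06, 1.71, 1.35 and 1.33 on the STD arrays. The ERD values lay below all BLD values and below all STD values, although ERD 5 and STD 5 were equal to 2 decimals. The change was -0.88 ± 0.22 (SE) against STD, or 0.544 of the STD level, with a 95% interval of -1.34 to -0.42. Against BLD it was -1.07 ± 0.22, with a limma adjusted p of 0.247. Without ERD 1 the changes were -0.73 and -0.92. Within the slides that held both ERD and STD, the differences were -1.24, -0.78 and -0.02, and within the slides that held both ERD and BLD (means per diet) they were -1.03, -2.26 and -0.50. From Cy5 alone the changes were -0.78 and -0.99. Napg has a single probe on the array.

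On the probes used, values for the other SNAP adaptors lay near 0. A further probe of each gave ERD against STD changes of -0.30 (Napa) and -0.24 (Napb). Napa (alpha-SNAP) had an ERD against STD change of 0.02 and Napb (beta-SNAP) one of 0.09, with 95% intervals of -0.31 to 0.36 and -0.37 to 0.54. The ATPase Nsf was at -0.17, with BLD 3 at 1.91 against 3.46 to 4.05 on the other BLD arrays.

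Snap25 anchors the SNARE complex at the plasma membrane. Its log2 ratios were 3.93, 3.06, 3.08, 5.43 and 2.77 on the ERD arrays, 2.93, 5.36, 4.09, 2.93 and 2.38 on the BLD arrays, and 2.18, 2.48, 2.49, 2.52 and 1.69 on the STD arrays. All ERD values lay above all STD values, BLD overlapped with both, and the 3 highest values came from 1 slide, which held ERD 4, BLD 2 and BLD 3 and no STD array. The change was 1.38 ± 0.54 in ERD against STD (2.6-fold, limma adjusted p = 0.259) and 1.27 ± 0.54 in BLD against STD (adjusted p = 0.442). Within the 3 slides that held both ERD and STD the differences were 0.58, 0.90 and 0.25, and on the 1 slide with both BLD and STD the difference was -0.15. With slide as a fixed block the changes were 0.61 against STD for ERD and -0.12 for BLD, and with scan day as a fixed block they were 1.03 and 0.20. The part of slide and scan day in these values was not tested further.

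The partners of Snap25 in the complex had smaller changes in ERD against STD, with intervals over all arrays that held 0. Stx1a, the syntaxin of the plasma membrane, had ratios of 2.55, 3.66, 3.91, 3.41 and 3.13 in ERD, 3.25, 3.41, 3.37, 3.55 and 3.36 in BLD, and 3.36, 3.38, 3.20, 3.00 and 3.98 in STD. The groups overlapped fully, and the change in ERD against STD was -0.05 (95% interval -0.52 to 0.41). Vamp2, the main vesicle SNARE of forebrain, had 3.68, 4.87, 5.20, 4.99 and 4.87 in ERD, 4.07, 4.63, 4.45, 5.16 and 4.98 in BLD, and 4.37, 4.66, 4.21, 4.41 and 4.24 in STD. ERD 1 stood apart at the bottom and the other 4 ERD arrays lay above every STD array, with a change of 0.35 ± 0.25 over all arrays and 0.61 without ERD 1. In limma, 5 of 29 other settings gave this Vamp2 change an unadjusted p under 0.05. Vamp1, its relative, was at -0.18.

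**Figure D2:**
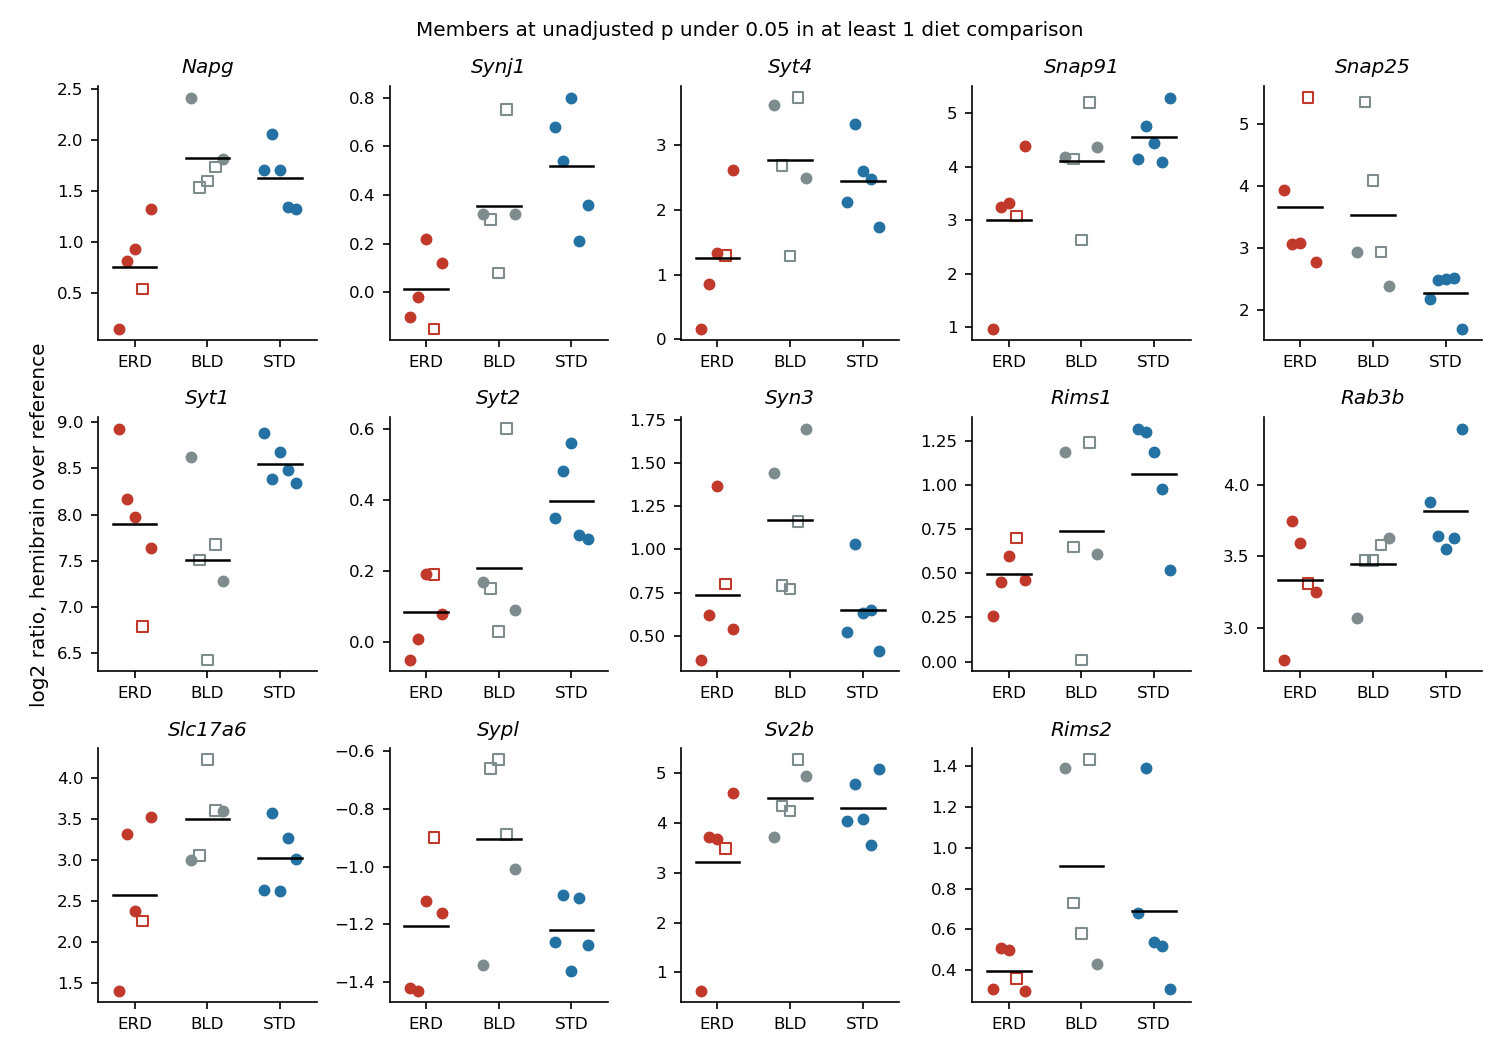
Log2 ratio of hemibrain to reference on each of the 15 arrays for the 14 genes at an unadjusted p under 0.05 in at least 1 comparison, with ERD, BLD and STD from left to right. Bars are group means, and open squares are the 4 arrays of the later scan day. Napg is lower on all ERD arrays, and the high Snap25 values of 5.43 and 5.36 are both open squares.

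Among calcium sensors and complexins, 6 of 8 changes in ERD against STD were negative (75%, against 47.1% of all genes). The median of -0.11 was 0.00 from Cy5 alone and 0.01 with the scanner ratio. Without ERD 1, 3 of 8 were negative (37.5%, against 46.3% of all genes). Syt4, a synaptotagmin that binds calcium poorly and sits largely on dense-core vesicles, had ratios of 0.16, 0.85, 1.34, 1.3 and 2.62 in ERD, 3.62, 2.69, 1.29, 3.74 and 2.49 in BLD, and 2.13, 3.33, 2.60, 2.48 and 1.73 in STD. ERD 5 lay within the STD range, and the other 4 ERD arrays lay below it. On ERD 1 the Cy3 reference level of Syt4 was 7.80 (log2), against 5.89 to 6.34 on the other arrays. Its Cy5 level there was 6.42, against 6.25 to 7.42 on the other ERD arrays. The change was -1.20 ± 0.48 against STD (limma adjusted p = 0.268) and -1.51 ± 0.48 against BLD (adjusted p = 0.356). Without ERD 1 these were -0.92 and -1.24, and the one against STD then had an unadjusted p of 0.0703. Within slides the differences against STD were -2.47, -0.79 and 0.14, and from Cy5 alone the change was -0.55. Against BLD it was -1.09 with the scanner ratio, at an unadjusted p of 0.244.

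Syt1 was at 8.93, 8.17, 7.97, 6.79 and 7.64 in ERD, 8.62, 7.51, 6.43, 7.68 and 7.28 in BLD, and 8.88, 8.38, 8.68, 8.48 and 8.34 in STD. Of the BLD arrays, 4 of 5 lay below every STD array, and BLD 1 lay within the STD range. The change was -1.05 ± 0.37 in BLD against STD (limma adjusted p = 0.404) and -0.65 ± 0.37 in ERD against STD (adjusted p = 0.426). On the slide with both BLD and STD the difference was -1.20, and within the first scan day it was -0.60. With scan day as a fixed block the change was -0.45, and from Cy5 alone -0.65.

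Syt2, the fast calcium sensor of many hindbrain synapses and of some interneurons, was near background. Its ratios were -0.05, 0.01, 0.19, 0.19 and 0.08 in ERD, 0.17, 0.15, 0.03, 0.60 and 0.09 in BLD, and 0.35, 0.48, 0.56, 0.30 and 0.29 in STD. It was well above background on 0 ERD, 1 BLD and 4 STD arrays, and all ERD values lay below all STD values. It entered the test through the arrays on which it was high, so its p is no test of the difference. The mean STD level stood at 1.1-fold the background limit of the ERD arrays, which likewise is no test of a difference.

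The remaining genes of the role were Cplx1, Cplx2, Syt7, Syt11 and Doc2a. Cplx2, a clamp and activator of SNAREs, averaged 3.88 ± 0.43 in ERD, 3.44 ± 0.96 in BLD and 3.15 ± 0.41 in STD (SD, n = 5 each). The ERD arrays (3.52 to 4.35) did not overlap with the STD arrays (2.45 to 3.48), at a change of 0.73 ± 0.37 and a limma adjusted p of 0.373. Its 3 further probes had changes of 0.05, 0.53 and 0.82. Cplx1, Syt7, Syt11 and Doc2a had changes between -0.16 and 0.05.

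In all, 4 of the 37 genes had ERD and STD arrays that did not overlap (10.8%), namely Napg and Syt2 below and Snap25 and Cplx2 above, against 3.79% of all genes tested (1.83% below and 1.96% above). Syt2 was above background on 0 ERD arrays and is no independent count, and the other 3 were above background on all 15 arrays.

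All 7 genes of the active zone, priming and Rab3 had negative changes in ERD against STD, against 47.1% of all genes. Their median was -0.14 (-0.04 from Cy5 alone and -0.32 with the scanner ratio). The shared sign did not hold under every scaling, since 5 of 7 were negative with the scanner ratio, where Bsn and Pclo were at 0.12 and 0.11, and 4 of 7 from Cy5 alone. Rims1, a scaffold that links Rab3 to calcium channels, had ratios of 0.26, 0.45, 0.60, 0.70 and 0.46 in ERD, 1.19, 0.65, 0.01, 1.24 and 0.61 in BLD, and 1.32, 1.3, 1.19, 0.98 and 0.52 in STD. STD 5 lay among the ERD arrays and the other 4 STD arrays lay above them, with a change of -0.57 ± 0.21 (limma adjusted p = 0.245). With median centring the change was -0.22, at an unadjusted p of 0.245. A second Rims1 probe was at -0.25.

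Rims2, its paralog, was at 0.31, 0.51, 0.50, 0.36 and 0.30 in ERD, 1.39, 0.73, 0.58, 1.43 and 0.43 in BLD, and 0.68, 1.39, 0.54, 0.52 and 0.31 in STD. BLD 1, BLD 4 and STD 2 were high, and the groups overlapped, with a change of -0.52 ± 0.22 in ERD against BLD (limma adjusted p = 0.451) and -0.29 ± 0.22 in ERD against STD. From Cy5 alone the change against BLD was -0.08, and 9 of 28 settings left it at an unadjusted p of 0.05 or more. Rab3b, a vesicle GTPase, had 2.78, 3.75, 3.59, 3.31 and 3.25 in ERD, 3.07, 3.47, 3.47, 3.58 and 3.63 in BLD, and 3.88, 3.64, 3.55, 3.63 and 4.39 in STD. ERD 1 was lowest and STD 5 highest, and the change of -0.48 ± 0.19 in ERD against STD (limma adjusted p = 0.267) was -0.34 without ERD 1. With slide as a fixed block it was -0.18, and within slides 0.12, -0.29 and -0.39.

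Bsn, the bassoon scaffold, had 3.91, 4.58, 4.20, 3.52 and 3.63 in ERD, 4.59, 3.87, 3.65, 4 and 3.59 in BLD, and 4.33, 4.22, 4.08, 3.91 and 3.79 in STD. The diets overlapped fully, at a change of -0.10 (95% interval -0.56 to 0.36) in ERD against STD. Pclo, the piccolo scaffold, was at -0.14, Rab3a at -0.10 and the priming factor Unc13a at -0.07. The 3 further probes of Pclo gave -0.26, -0.75 and 0.20.

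Synapsins and vesicle membrane proteins had 6 of 8 negative changes in ERD against STD (75%, against 47.1% of all genes), with a median of -0.13. In BLD against STD, 2 of 8 were negative (25%, against 39.4% of all genes). The median was 0.19, against 0.05 for all genes. Without ERD 1, 2 of 8 were negative in ERD against STD (25%, against 46.3% of all genes), with a median of 0.03. The BLD against STD median was -0.02 with the scanner ratio. Sv2b, a vesicle glycoprotein, had ratios of 0.63, 3.71, 3.67, 3.48 and 4.59 in ERD, 3.71, 4.34, 4.24, 5.27 and 4.95 in BLD, and 4.03, 4.78, 4.07, 3.56 and 5.09 in STD. ERD 1 lay far below every other array, and the change in ERD against BLD was -1.28 ± 0.56 (limma adjusted p = 0.465) with it and -0.64 without it. The change was -0.08 with the scanner ratio and -0.22 with offset 1, and 11 of 29 settings left it at an unadjusted p of 0.05 or more. Its relative Sv2a showed ERD 1 apart in the same way, at 1.37 against 3.16 to 3.67 on the other ERD arrays.

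Syn3, the synapsin found early in development and in adult neurogenic regions, had 0.36, 0.62, 1.37, 0.80 and 0.54 in ERD, 1.44, 0.79, 0.77, 1.16 and 1.70 in BLD, and 0.52, 1.03, 0.63, 0.65 and 0.41 in STD. Of the BLD arrays, 3 of 5 lay above every STD array, and the change was 0.53 ± 0.21 (limma adjusted p = 0.437), against 0.34 with the scanner ratio and 0.18 from Cy5 alone. Syn1 and Syn2, the abundant synapsins of mature terminals, had ERD against STD changes of -0.13 and -0.02. A second Syn2 probe was at -0.20. Sypl was at -1.42, -1.43, -1.12, -0.90 and -1.16 in ERD, -1.34, -0.66, -0.63, -0.89 and -1.01 in BLD, and -1.26, -1.10, -1.36, -1.11 and -1.27 in STD. BLD 2, BLD 3, BLD 4, BLD 5 and ERD 4 lay above all STD arrays, of which all but BLD 5 belong to the later scan day. The BLD against STD change of 0.31 ± 0.14 (limma adjusted p = 0.458) was 0.04 within the first scan day. A further Sypl probe, above background on 14 arrays, gave 0.02.

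Syp, the classical vesicle marker synaptophysin, had 3.55, 4.36, 4.94, 4.13 and 4.16 in ERD, 5.20, 4.66, 4.17, 4.85 and 3.87 in BLD, and 4.17, 4.75, 4.52, 4.55 and 3.83 in STD. The diets overlapped, with a change in ERD against STD of -0.14 (95% interval -0.71 to 0.44). Synpr, its relative synaptoporin, was at -0.18.

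The 4 endocytosis genes all had negative changes in both ERD against STD (median -0.37) and BLD against STD (median -0.35), comparisons that share the STD arrays. Of all genes, 47.1% and 39.4% were negative. Snap91 encodes AP180, the adaptor that sets the size of clathrin-coated vesicles at synapses. Its ratios were 0.97, 3.24, 3.33, 3.08 and 4.38 in ERD, 4.18, 4.14, 2.63, 5.20 and 4.37 in BLD, and 4.15, 4.76, 4.45, 4.08 and 5.29 in STD. ERD 5 lay within the STD range, the other 4 ERD arrays lay below it, and ERD 1 was lowest. The change in ERD against STD was -1.55 ± 0.53, or 0.343 of the STD level (limma adjusted p = 0.215), and -1.04 without ERD 1. Within slides it was -1.52, -0.82 and 0.31, and with slide as a fixed block -0.82. From Cy5 alone the change was -0.84, and the Cy3 reference level of Snap91 was low, at 5.87 to 6.27 (log2). With the scanner ratio the change was -1.55, at an unadjusted p of 0.0547 in limma.

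Synj1, the phosphatase that strips clathrin coats by acting on phosphoinositides, had -0.10, -0.02, 0.22, -0.15 and 0.12 in ERD, 0.32, 0.30, 0.08, 0.75 and 0.32 in BLD, and 0.68, 0.54, 0.80, 0.21 and 0.36 in STD. ERD 3 and STD 4 met at the edge of the ranges, and the other ERD arrays lay below all STD arrays. The change was -0.50 ± 0.14 (limma adjusted p = 0.142), or -0.48 without ERD 1, and within slides -0.56, -0.46 and -0.09. With median centring it was -0.18. Synj1 was dim, with 3 ERD, 4 BLD and 5 STD arrays well above background. Dnm1, the dynamin that cuts vesicles from the membrane, and Amph, which recruits it, had changes of -0.24 and -0.22. A second Dnm1 probe was at -0.50.

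The vesicular glutamate transporters fill excitatory vesicles. Both had negative changes in ERD against STD and positive ones in BLD against STD (median 0.35), although the BLD median was -0.61 with the scanner ratio. Of all genes, 47.1% were negative in the first comparison and 39.4% in the second. Slc17a6 (VGLUT2, mostly subcortical) had 1.41, 3.32, 2.38, 2.26 and 3.53 in ERD, 3.00, 3.06, 4.23, 3.61 and 3.60 in BLD, and 2.64, 3.58, 2.63, 3.27 and 3.02 in STD. ERD 1, ERD 3 and ERD 4 lay below all other arrays, and the change in ERD against BLD was -0.92 ± 0.35 (limma adjusted p = 0.428), or -0.63 without ERD 1. It was -0.33 with the scanner ratio, -0.30 with offset 1, -0.24 from Cy5 alone and -0.24 without the 3 least correlated arrays, none of them at an unadjusted p under 0.05. Slc17a7 (VGLUT1, mostly cortical) had 0.41, 2.47, 3.97, 3.78 and 2.27 in ERD, 4, 3.64, 3.18, 3.89 and 3.17 in BLD, and 3.25, 3.59, 3.26, 3.14 and 3.51 in STD. The ERD arrays fell on both sides of the STD range, with a change of -0.77 ± 0.49 (limma adjusted p = 0.473) that was -0.23 without ERD 1.

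BLD against STD asks how the balanced diet differed from the standard one. The vesicle genes had no common direction, with 19 of 37 negative (51.4%, against 39.4% of all genes) and a median of 0.00, against 0.05 for all genes. With the scanner ratio, 27 of 37 were negative, against 50.4% of all genes. None passed the adjusted p in limma (0 of 37, background 0.00887%), and 4 were at an unadjusted p under 0.05 (10.8%, as for 10.8% of all genes), namely Syt1 below (3.08% of all genes) and Snap25, Syn3 and Sypl above (7.76% of all genes). No gene had BLD and STD arrays that did not overlap (0 of 37), against 2.89% of all genes. The later scan day, which held no STD array, held 3 of the 5 BLD arrays, and with scan day as a block 1 gene was at an unadjusted p under 0.05 (5.45% of all genes).

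ERD against BLD, which shares its arrays with the other comparisons, gave 22 of 37 negative changes (59.5%, against 58.1% of all genes). The median was -0.12, against -0.04 for all genes. With the scanner ratio, 14 of 37 were negative, against 53.3% of all genes. None passed the adjusted p in limma (0 of 37, background 0%), and 6 were at an unadjusted p under 0.05 (10.4% of all genes), all of them negative (7.74% of all genes). They were Napg, Syt4, Slc17a6, Synj1, Rims2 and Sv2b. Without ERD 1 there were 2 genes at that threshold (5.84% of all genes), and without BLD 4 there were 3 (6.55% of all genes). Napg was the 1 gene whose ERD and BLD arrays did not overlap (1.37% of all genes, and 1.02% with ERD below).

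The 23 genes that reached an unadjusted p under 0.05 in no comparison had ERD against STD changes between -0.77 and 0.73, each with a 95% interval of at most 1.03 to either side. Over all 37 genes, 26 intervals lay within -1 and 1. Across 29 other settings of the processing and of the arrays used, Napg kept an unadjusted p under 0.05 in each. Snap91 in ERD against STD stayed between -1.89 and -0.82 and was under that threshold in 26 of the 29.

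**Figure D3:**
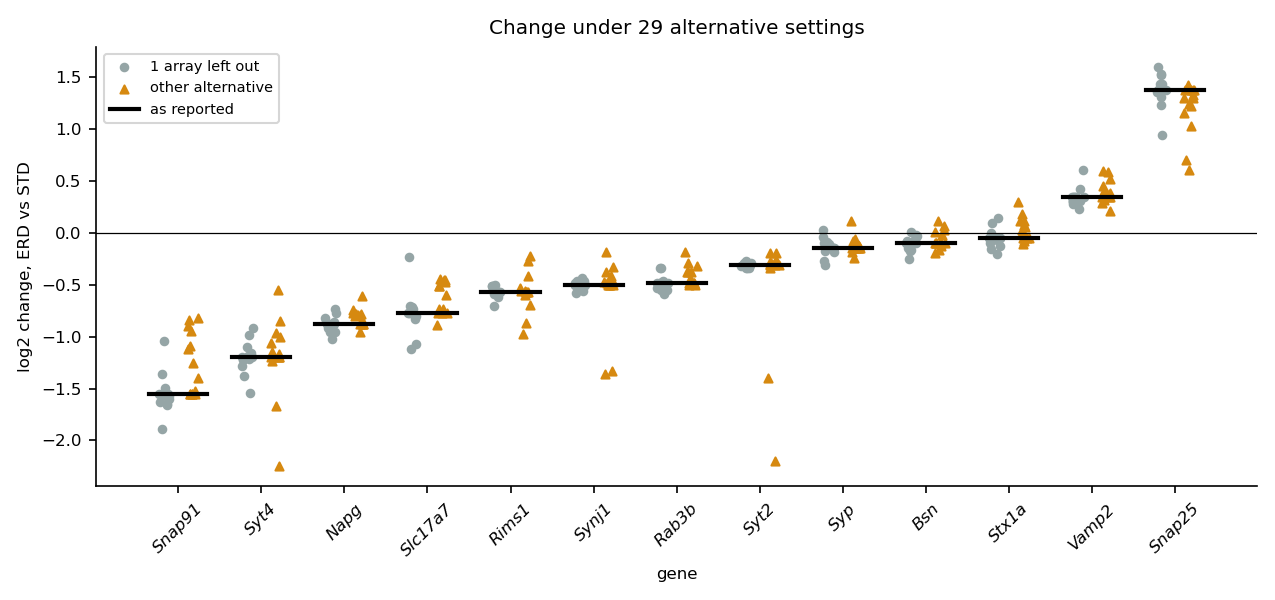
Log2 change in ERD against STD under 29 other settings for the 13 genes followed through them, with circles for 1 array left out, triangles for other choices and bars for the value as reported. Napg stays between -1.02 and -0.61, Snap25 between 0.61 and 1.6, and Stx1a, Bsn and Syp lie on both sides of 0.

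The vesicle genes varied more between arrays of a diet than genes in general. Their median SD was 0.44 in ERD, 0.41 in BLD and 0.30 in STD, against 0.27, 0.25 and 0.19 for all genes. Without ERD 1 the ERD value was 0.31, against 0.24 for all genes. Relative to each gene's mean over the 15 arrays, the vesicle genes had a median deviation of -0.36 on ERD 1, between -0.15 and -0.01 on the other ERD arrays, between -0.10 and 0.31 on the BLD arrays, and between -0.16 and 0.24 on the STD arrays. On ERD 1 the 2 glutamate transporters together were at -2.19, the synapsins and membrane proteins at -0.66 and the active zone genes at -0.10. Amph and Syt1 had their highest value of all arrays on ERD 1.

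**Figure D4:**
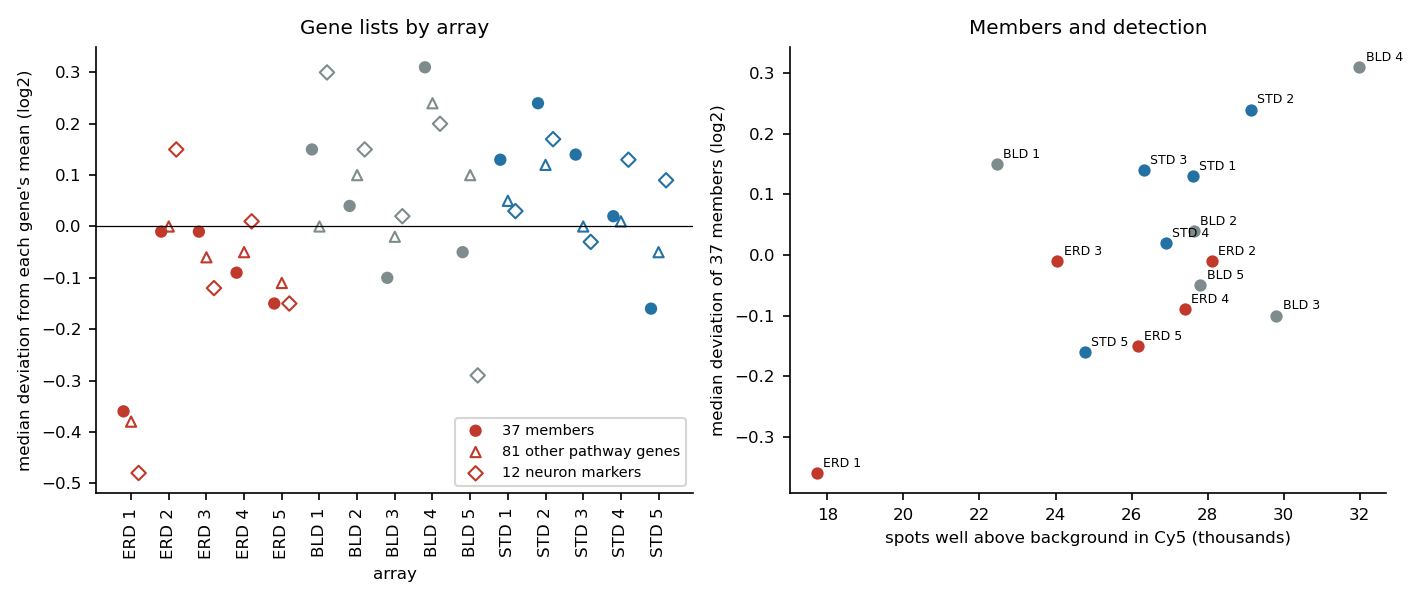
Left, median deviation (log2) from each gene's mean on every array for the 37 vesicle genes, 81 other pathway genes and 12 neuron markers, with ERD, BLD and STD arrays from left to right. Right, the vesicle genes' median against the spots well above background in Cy5, where ERD 1 lies at 17720 spots and -0.36.

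The neuron markers were low on the same array. Of 12 markers, 9 had a negative change in ERD against STD (75%, against 47.1% of all genes). Their median was -0.22 (-0.10 without ERD 1, -0.11 from Cy5 alone and -0.04 with the scanner ratio). Their mean log2 ratio ranged from 3.07 to 4.07 on ERD arrays, 3.85 to 4.39 on BLD arrays and 4.03 to 4.39 on STD arrays. Markers of other cells had medians of -0.16 for astrocytes (8 of 10 negative), -0.24 for oligodendrocytes (9 of 10) and -0.36 for microglia (8 of 10), where 47.1% of all genes were negative. Without ERD 1 these medians were -0.18, -0.20 and -0.14. From Cy5 alone they were -0.17, -0.02 and -0.16, and with the scanner ratio -0.17, -0.34 and -0.21. Regional markers gave -0.08 for cerebral cortex, -0.33 for hippocampus, -0.26 for striatum and 0.01 for cerebellum, and 7 of the 9 brainstem markers were not measured. From Cy5 alone the 4 regional medians were 0.05, -0.15, 0.00 and 0.14. The part of tissue composition or array quality in the vesicle gene values was not tested.

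Among 88 further genes of the same pathways, 81 were tested and 0 passed the adjusted p in limma in any of the 3 comparisons. In ERD against STD, 52 of 81 were negative (64.2%, against 47.1% of all genes), and 15 were at an unadjusted p under 0.05 (18.5%, against 14.6%), 13 of them lower. Without ERD 1, 47 were negative (58%, against 46.3%) and 11 were at that threshold (13.6%, against 13.8%). In BLD against STD, 25 of 81 were negative (30.9%, against 39.4%) and 7 were at that threshold (8.64%, against 10.8%). In ERD against BLD, 63 of 81 were negative (77.8%, against 58.1%) and 16 were at that threshold, all lower (19.8%, against 10.4%), but with the scanner ratio the 16 became 6 (7.41%, against 12.2%). Of the other endocytosis genes, 12 of 23 were negative in ERD against STD (52.2%, against 47.1% of all genes). Ap2b1, a subunit of the clathrin adaptor AP-2, averaged 0.20 ± 0.29 in ERD, 0.79 ± 0.67 in BLD and 1.27 ± 0.20 in STD (SD, n = 5 each). Its ERD arrays (-0.09 to 0.57) lay below all STD arrays (1.00 to 1.46), as for 1.83% of all genes. The change was -1.07 ± 0.25, with a limma adjusted p of 0.099. The pathway genes named here and below were taken for their low p, so their separation is no test of the lists. The clathrin light chain gene Cltb was at -0.36 and Sh3gl2 (endophilin A1) at -0.87, which was -0.42 without ERD 1, where it stood at 1.24 against 3.16 to 3.84 on the other ERD arrays.

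Of the other vesicle membrane and transport genes, 19 of 24 were negative in ERD against STD (79.2%, against 47.1% of all genes). Without ERD 1 the shares were 66.7% and 46.3%. Syngr3 and Syngr1, which encode synaptogyrins, were at -0.89 and -1.02, or -0.78 and -0.62 without ERD 1. The vesicular zinc transporter gene Slc30a3 was at -0.68. Of the other exocytosis genes, 21 of 34 were negative (61.8%, against 47.1% of all genes). Snap23, the widely expressed relative of Snap25, averaged 3.05 ± 1.18 in ERD, 2.70 ± 1.31 in BLD and 1.52 ± 0.34 in STD (SD, n = 5 each). Its ERD arrays (1.97 to 4.96) lay above all STD arrays (0.96 to 1.76), as for 1.96% of all genes. The change was 1.53 ± 0.58, with a limma adjusted p of 0.249. The highest Snap23 values, 4.96 on ERD 4 and 4.71 on BLD 2, came from 1 slide of the later scan day, which held no STD array. Stx3 was at -0.52 and Syt10 at -1.23.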

How the data were processed

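Left hemibrain RNA in Cy5 was compared with a reference pool in Cy3 on 15 Agilent 2-colour arrays, 5 per diet, grouped by the diet in the labels. The authors deposited scanner output with 2 kinds of intensity per spot and channel: the median over pixels with its local background, and a processed signal that the software had background-subtracted and dye-normalized. The log10 ratios of Cy5 over Cy3 that the authors deposited with the series equal those of the scanner files to within 1e-06. Per the file headers, Agilent Feature Extraction 11.5.1.1 was used with probes designed on mm9, while the submitters' processing notes name version 10.7. No dyes were swapped, so a dye effect is common to all arrays.

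Median intensities were corrected with normexp (offset 50) and loess within arrays in limma 3.58.1 (R 4.3.3), with control spots at weight 0 and outlier spots (0.574%) removed. Spots of a probe were averaged. Each gene took its brightest probe by mean processed Cy5 signal, and was tested if that probe passed the background call in Cy5 on 5 or more arrays and had 8 or more values, which left 22552 genes (13758 with a symbol). Of the 37 vesicle genes tested, 31 were above background on all 15 arrays and 6 on fewer. In Cy5, 0 of their probes were called saturated on any array, at a share of 0.5 or more of a probe's spots. Saturation in Cy3 was not counted. One limma model held the 3 diets (12 residual degrees of freedom) and gave 2-sided p-values, adjusted with the Benjamini-Hochberg method over all genes. The number of arrays limits the precision. Python 3.11.15, pandas 2.3.3 and matplotlib 3.10.9 were used for promoters and figures. The fit was also run on simulated data with independent noise and no slide, scan day or array effects, so that run does not test those effects.

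The genes, the role and pathway lists, the markers and the alternatives were chosen with earlier results of these data known. Genes at an unadjusted p under 0.05 in a comparison (at most 14, by F test), with Snap25, Stx1a, Vamp2, Syt1, Syp, Bsn, Slc17a6 and Slc17a7, are given on every array. Of each pathway list, the 3 genes of lowest p in ERD against STD are named. Markers of blood vessels, choroid plexus, erythrocytes, thalamus and olfactory bulb had ERD against STD medians of -0.05, -0.16, -0.05, -0.09 and -0.37, and the 2 brainstem markers measured had 0.19. Alternatives changed the background correction, dye normalization, channel, filter, probe summary, batch terms, array weights and arrays used. Counts of the role groups and lists without ERD 1, under other scalings and without Syt2 were added after seeing the data.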

Additional observations from a re-analysis of the deposited data

Results flagged for a closer look

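In 8 of 114 sets of 5 arrays, 1 array lay far from the other 4 for a vesicle gene or a list median, where chance gives about 6. On ERD 1, Vamp2 was at 3.68 (nearest ERD array 4.87), Sv2a at 1.37 (nearest 3.16) and Sv2b at 0.63 (nearest 3.48), all on the low side. Doc2a, a calcium sensor of spontaneous release, was at 4.03 on ERD 2 (nearest 2.73). On the BLD arrays, Nsf was at 1.91 on BLD 3 (nearest 3.46), Rab3a at 6.23 on BLD 1 (nearest 5.63) and Syt2 at 0.60 on BLD 4 (nearest 0.17). Syt11 was at 5.11 on STD 5 (nearest 5.57). ERD 1 also had the fewest spots well above background (17720), and the part of that in its low values was not tested.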

How the results depend on the processing

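Every comparison was recomputed under 29 alternatives, 15 of which left out 1 array each. No vesicle gene passed the adjusted p in limma under any of them (0 in each comparison). Of 23 results of single genes, 2 kept an unadjusted p under 0.05 throughout, both for Napg, at -1.02 to -0.61 in ERD against STD (adjusted p 0.0603 to 0.496) and -1.31 to -0.82 in ERD against BLD (adjusted p 0.0718 to 0.732). Direction was kept in all settings by 19 of the 23. With slide as a fixed block, Snap25 in BLD against STD turned to -0.12.

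The median change in BLD against STD was -0.32 with the scanner ratio, -0.25 with offset 1 and 0.16 with median centring, and in ERD against BLD it was 0.09, 0.10 and -0.33. Median centring also moved the median of all genes, to 0.18 and -0.20. It gave 10 and 32 of 37 negative changes (19.1% and 83.3% of all genes), and 33 of 37 in ERD against STD (53.7%). The scanner ratio gave 27 and 14 of 37 (50.4% and 53.3% of all genes). Offset 1 gave 26 and 14 of 37 (51.7% and 48.5%), and 23 of 37 in ERD against STD (51.2%). Without the 3 least correlated arrays, ERD against STD had 20 of 37 negative and a median of -0.02, against 0.01 for all genes.

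Genes at an unadjusted p under 0.05 in BLD against STD numbered 7 with the scanner ratio (12.8% of all genes), 2 with slide as a random block (10.3%) and 1 with scan day as a block (5.45%). In ERD against BLD they numbered 11 with median centring (20.3%), 3 from Cy5 alone (10.1%), 10 with slide as a random block (13.1%) and 3 with the number of detected spots as a covariate (6.6%). In ERD against STD they numbered 5 with median centring (7.12%) and 5 of 31 with detection on all 15 arrays (17.3%). Leaving out 1 array gave 7 to 11 in ERD against STD, 2 to 6 in BLD against STD (2 without BLD 2 or STD 1) and 2 to 10 in ERD against BLD (2 without ERD 1, 3 without BLD 4, 10 without ERD 3), where the shares of all genes were 11.1% to 16.5%, 7.22% to 14.2% and 5.84% to 12.1%. The medians then ranged over -0.24 to -0.08, -0.08 to 0.04 and -0.21 to -0.04. The cause of these differences was not tested. No paired analysis was possible because the labels pair no samples by number, and slides that held several diets were used as blocks instead. Signal over background limits the dim genes, and Syt2 in ERD against STD was -2.20 with the scanner ratio.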
